A study of Mus musculus with 8 samples.

Results

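The levels of 10 genes that mark T cells were followed in livers of mice with an autoimmune hepatitis model. They were chosen by name, and all 10 of 10 were found in a deposited table of 13703 rows. Cd3d, Cd3g and Trbc2 encode parts of the T cell receptor complex. Cd4, Cd2 and Icos encode its coreceptor and costimulatory receptors, Lck, Zap70 and Lat its first signalling proteins, and Thy1 a surface glycoprotein. The study sequenced liver RNA from 8 libraries. Alb-Cre libraries (4) came from Bicd2fl/fl mice with Cre driven by the albumin promoter, which acts in hepatocytes. Alb-WT libraries (4) came from Bicd2fl/fl mice without that Cre. Both groups therefore carried the floxed Bicd2 alleles, and both were immunized with S-100, a soluble liver antigen preparation emulsified in complete Freund's adjuvant. Mice received 3 intraperitoneal injections of 2.5 mg, 1 a week, and the liver was collected 2 weeks later. The sources used here state no strain, age or sex for these groups, and no untreated liver was analysed here. The labels do not say that the libraries came from separate animals, so a p-value speaks only to the scatter among these samples, and that scatter may be technical.

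A T cell reads peptides held by MHC molecules through its receptor, whose variable chains are paired with CD3 chains. CD4 on helper T cells binds MHC class II and brings the kinase Lck to the receptor. Lck phosphorylates the CD3 chains, Zap70 docks there, and Zap70 then phosphorylates the scaffold Lat. Helper T cells are central to autoimmune hepatitis, where they gather in the portal tracts of the liver. Several of these genes are not limited to T cells. Natural killer cells use Zap70, Lck and Cd2, mouse B cells carry Cd2, some dendritic cells carry Cd4, platelets and mast cells use Lat, and fibroblasts and nerve cells carry Thy1.

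RefSeq start sites were listed for 5 of the 10 genes, with 8 windows between them. The 250 bases before a start are printed here for genes that moved together across libraries (Cd3d, Cd3g, Lck and Lat) and for the first of 3 starts of Zap70, which did not follow them. Positions are those of the RefSeq table's build, GRCm38.p6, and are not coordinates of the deposited values. Capitals mark matches, on either strand, to 5 short motifs chosen after the sequences were seen: AGGAAG (core of ETS factor sites), TGTGGT (RUNX), TCAAAG (TCF and LEF factors), CAGCTG (an E-box) and TATAAA (the TATA box). None of these motifs overlapped another in the windows shown.
Cd3d, chr9:44981536-44981785, plus strand: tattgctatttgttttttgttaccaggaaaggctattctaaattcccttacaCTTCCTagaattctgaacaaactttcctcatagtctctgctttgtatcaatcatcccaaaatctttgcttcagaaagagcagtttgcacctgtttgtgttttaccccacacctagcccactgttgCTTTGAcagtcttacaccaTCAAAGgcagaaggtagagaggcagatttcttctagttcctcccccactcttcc
Cd3g, chr9:44980432-44980681, minus strand: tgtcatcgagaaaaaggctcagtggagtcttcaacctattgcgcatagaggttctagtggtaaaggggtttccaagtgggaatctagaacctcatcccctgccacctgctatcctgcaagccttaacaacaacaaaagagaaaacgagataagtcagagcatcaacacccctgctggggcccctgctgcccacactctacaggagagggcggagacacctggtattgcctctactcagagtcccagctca
Lck upstream start, chr4:129573642-129573891, minus strand: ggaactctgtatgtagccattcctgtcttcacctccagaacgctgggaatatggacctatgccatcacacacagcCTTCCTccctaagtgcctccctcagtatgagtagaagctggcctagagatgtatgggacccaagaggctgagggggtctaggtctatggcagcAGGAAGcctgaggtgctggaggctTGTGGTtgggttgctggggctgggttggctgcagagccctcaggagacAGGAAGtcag
Lck downstream start, chr4:129558373-129558622, minus strand: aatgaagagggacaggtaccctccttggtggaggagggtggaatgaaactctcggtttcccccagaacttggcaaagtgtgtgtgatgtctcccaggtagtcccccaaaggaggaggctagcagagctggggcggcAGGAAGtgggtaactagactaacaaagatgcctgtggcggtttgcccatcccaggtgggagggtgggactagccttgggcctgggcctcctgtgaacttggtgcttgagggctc
Lat, chr7:126369569-126369818, minus strand: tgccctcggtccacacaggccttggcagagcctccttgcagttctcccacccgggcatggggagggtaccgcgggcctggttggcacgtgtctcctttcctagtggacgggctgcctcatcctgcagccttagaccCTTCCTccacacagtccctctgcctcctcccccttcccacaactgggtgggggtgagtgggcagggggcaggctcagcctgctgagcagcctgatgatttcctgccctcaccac
Zap70 first start, chr1:36761548-36761797, plus strand: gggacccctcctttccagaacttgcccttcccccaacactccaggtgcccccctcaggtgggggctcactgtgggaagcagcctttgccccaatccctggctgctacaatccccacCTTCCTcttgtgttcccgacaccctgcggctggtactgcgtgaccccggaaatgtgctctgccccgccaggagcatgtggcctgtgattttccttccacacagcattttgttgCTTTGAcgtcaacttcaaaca
Cd3g and Cd3d lie head to head, with 1355 bases between their start sites. AGGAAG was found in the windows of Cd3d, Lck (3 matches upstream, 1 downstream), Lat and Zap70, and 29.5% of 32851 windows of this length hold it. TCAAAG was found 2 times before Cd3d and 1 time before Zap70, against 13.8% of all windows, and TGTGGT 1 time before the upstream Lck start, against 14.0%. CAGCTG and TATAAA, held by 13.0% and 12.4% of all windows, were found in none of the 6 sequences, and the Cd3g window held none of the 5 motifs. Of the Zap70 windows not printed, the second held AGGAAG 2 times and TGTGGT 1 time, and the third held none of the 5. The data give a single value for each gene, so which start site was in use was not tested.

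The libraries were of similar depth, with totals behind the FPKM values (fragments scaled to gene length and to the library's total) of 32793770 to 39157210. Bicd2, the targeted gene, was 0.628 ± 0.107 FPKM in Alb-Cre and 2.85 ± 0.288 in Alb-WT (SD, n = 4 each, limma adjusted p = 7.25e-05), with no overlap. Alb-Cre replicate 4 shared this low Bicd2 level (0.732 FPKM) but otherwise stood apart. Across all genes on the log2 scale its Pearson correlation was 0.966 to 0.968 with Alb-Cre replicates 1 to 3 and 0.980 to 0.982 with the Alb-WT libraries. Pairs within Alb-WT had 0.995 to 0.997, as did pairs among Alb-Cre replicates 1 to 3. Pairs of these replicates with Alb-WT libraries had 0.969 to 0.972. Alb-Cre replicate 4 was thus not as close to either set as its members were to one another. Calls for the 10 genes and for the gene lists are therefore given with Alb-Cre replicate 4 and without it. It was set apart because of its values in these same data. Leaving it out lowered the standard error for each of the 10 genes. A p-value without it thus describes the remaining libraries only and is not separate evidence for a genotype difference. The median gene differed by -0.13 between the genotypes on the log2 scale, and by 0.02 after median-of-ratios scaling.

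T cell genes were far lower in Alb-Cre replicates 1 to 3 than in Alb-WT livers, while Alb-Cre replicate 4 was at or above the Alb-WT level for most of them. With all 8 libraries only 1 of the 10 genes, Icos, was called lower in Alb-Cre (limma, adjusted p under 0.05), and none was called higher. Over all 11077 genes tested, 23.3% were called lower (2582) and 8.48% higher (939), a split that became 1516 lower and 1872 higher under median-of-ratios scaling and 1478 and 1523 under quantile normalization. The voom fit of recovered fragments called 5 of the 10 lower and none higher, against 25.9% and 8.45% of all genes. Without Alb-Cre replicate 4, 9 of the 10 were called lower, all but Zap70, and none higher, against 46.1% and 15.2% of all genes tested. In that subset the count was 9 with median-of-ratios scaling (all genes: 24.4% lower, 31.1% higher), 8 with quantile normalization (23.8% and 27.2%) and 9 with voom (46.9% and 15.5%). Values of Alb-Cre replicates 1 to 3 lay below every Alb-WT value for the same 9 genes, and this held for 46.0% of all genes. A mean under 25% of the Alb-WT mean in these 3 libraries was seen for 7 of the 10 genes and for 3.20% of all genes tested. All 10 passed the expression minimum of 0.5 FPKM over the 8 libraries, but 7 had a mean under 0.5 FPKM in Alb-Cre replicates 1 to 3, so they passed through the other libraries and such counts describe the list only. Of the 30 values in these 3 libraries, 18 rest on 20 fragments or fewer. In bulk RNA, fewer T cells and less T cell RNA per cell cannot be told apart.

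**Figure D1:**
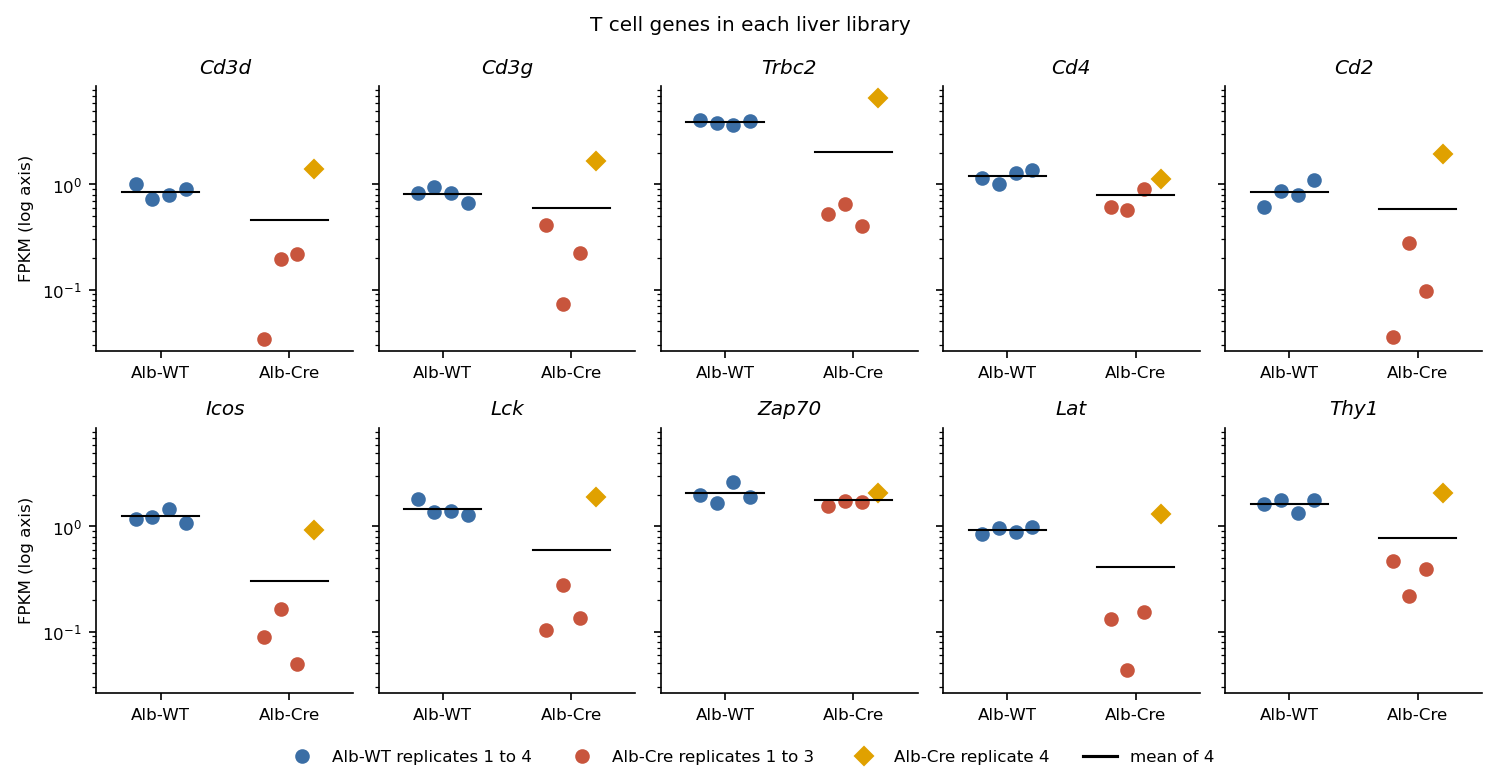
Levels of the 10 T cell genes in FPKM on a log axis, 1 panel per gene. Points are libraries, diamonds are Alb-Cre replicate 4 and lines are means of 4. Outside Zap70, Alb-Cre replicates 1 to 3 lie below all Alb-WT points, whereas Alb-Cre replicate 4 lies above them for 7 genes.

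Among the receptor chains, Cd3d encodes CD3 delta. Alb-WT replicates 1 to 4 had 1.0, 0.723, 0.795 and 0.907 FPKM of it, and Alb-Cre replicates 1 to 4 had 0.0336, 0.197, 0.216 and 1.41 FPKM. The first 3 Alb-Cre values were below all Alb-WT values and the fourth was above them, so the groups overlapped. These low values rest on 2, 12 and 14 fragments, and 2 fragments have an exact 95% Poisson interval of 0.242 to 7.22 fragments. In limma its log2 fold change was -0.43 with all libraries (SE 0.23, limma adjusted p = 0.182) and -0.69 without Alb-Cre replicate 4 (SE 0.084, adjusted p = 5.43e-05).

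Cd3g encodes CD3 gamma. It was 0.821, 0.952, 0.827 and 0.66 FPKM in Alb-WT replicates 1 to 4 and 0.41, 0.0731, 0.222 and 1.66 FPKM in Alb-Cre replicates 1 to 4. Again the first 3 Alb-Cre libraries were low and the fourth was above Alb-WT. Alb-Cre replicate 1 held 44 fragments of Cd3g beside 2 of Cd3d, while replicates 2 and 3 held 8 and 26 of Cd3g beside 12 and 14 of Cd3d. In the Alb-WT libraries Cd3g fragments ranged from 80 to 121 and those of Cd3d from 48 to 61. For Cd3g limma gave a log2 fold change of -0.28 (SE 0.25, adjusted p = 0.391), and -0.56 without Alb-Cre replicate 4 (SE 0.098, adjusted p = 0.00066).

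Trbc2 encodes a constant region of the receptor beta chain and had the highest level of the 10 genes in Alb-WT. Its values were 4.14, 3.83, 3.65 and 4.06 FPKM in Alb-WT and 0.529, 0.647, 0.404 and 6.64 FPKM in Alb-Cre replicates 1 to 4. Alb-Cre replicates 1 to 3 had 10 to 15 fragments each and replicate 4 had 180. The latter value was 12.6 times the mean of the other Alb-Cre libraries and 1.7 times the Alb-WT mean. The log2 fold change was -1.11 (95% interval -2.20 to -0.01, limma adjusted p = 0.104), and -1.69 without replicate 4 (-1.86 to -1.52). Its copy Trbc1 is nearly identical and was not analysed here, so how shared reads were assigned is unknown and the level is uncertain.

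Of the coreceptors, Cd4 moved least. Its level was 1.15, 1.01, 1.28 and 1.36 FPKM in Alb-WT and 0.605, 0.57, 0.902 and 1.13 FPKM in Alb-Cre replicates 1 to 4. Replicates 1 to 3 were below every Alb-WT value and replicate 4 was within the Alb-WT range. At 77 to 130 fragments in the low libraries this gene was counted better than most of the list. The log2 fold change was -0.30 (SE 0.11, limma adjusted p = 0.0656) and -0.38 without Alb-Cre replicate 4 (SE 0.089, adjusted p = 0.00377), but -0.11 without that library under quantile normalization (adjusted p = 0.333).

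Cd2 encodes an adhesion receptor that binds CD48. It was 0.617, 0.872, 0.794 and 1.1 FPKM in Alb-WT and 0.035, 0.275, 0.0964 and 1.94 FPKM in Alb-Cre replicates 1 to 4. With 2, 16 and 6 fragments in the first 3 Alb-Cre libraries, it had the fewest fragments of the list there. Alb-Cre replicate 4, at 132 fragments, had 2.29 times the Alb-WT mean, the highest such ratio among the 10 genes. Its fitted log2 fold change was -0.36 (SE 0.3, limma adjusted p = 0.374) and -0.70 without this library (adjusted p = 0.000206).

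Icos encodes a costimulatory receptor that appears on activated T cells. Alb-WT replicates 1 to 4 had 1.17, 1.24, 1.48 and 1.09 FPKM and Alb-Cre replicates 1 to 4 had 0.0889, 0.165, 0.0489 and 0.916 FPKM. It was the only one of the 10 in which all 4 Alb-Cre values lay below all 4 Alb-WT values, as 21.4% of all genes did. The fall was -0.83 on the log2 scale (SE 0.18, limma adjusted p = 0.0122). An exact two-sided permutation test gave p = 0.0286, the smallest that 70 assignments allow. Any gene without overlap gives this value, so the test only restates the separation. For the rest of the 10 genes the permutation p ran from 0.0571 (Cd4) to 0.4 (Cd3g). Icos passed with every single library left out (limma adjusted p at most 0.042). The Alb-WT mean was 12.3 times that of Alb-Cre replicates 1 to 3, which had 6 to 19 fragments per library.

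The kinase gene Lck followed the receptor chains. It stood at 1.83, 1.36, 1.4 and 1.29 FPKM in Alb-WT and at 0.104, 0.275, 0.134 and 1.9 FPKM in Alb-Cre replicates 1 to 4. Replicates 1 to 3 were low, on 10 to 27 fragments, and replicate 4 lay just above the highest Alb-WT value. Lck had a log2 fold change of -0.75 (SE 0.28, limma adjusted p = 0.0705) and -1.07 without replicate 4 (SE 0.091, adjusted p = 3.68e-06).

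Zap70, whose kinase acts next in the pathway, departed from this pattern. Its level was 2.0, 1.68, 2.66 and 1.92 FPKM in Alb-WT and 1.57, 1.76, 1.71 and 2.1 FPKM in Alb-Cre replicates 1 to 4. Alb-Cre replicate 1 was just below the lowest Alb-WT value and the other 3 Alb-Cre libraries were within the Alb-WT range. Each Alb-Cre library held 154 to 246 fragments, so counting did not limit this gene as it did the others. The log2 fold change was -0.13 with a 95% interval of -0.38 to 0.11 (limma adjusted p = 0.355), and -0.19 without Alb-Cre replicate 4 (-0.41 to 0.04, adjusted p = 0.129). Its sign depended on scaling, with 0.08 under quantile normalization (adjusted p = 0.541), and the gene was not called under any of the alternatives run.

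The scaffold gene Lat, in contrast, had 0.841, 0.976, 0.88 and 0.995 FPKM in Alb-WT and 0.132, 0.0432, 0.152 and 1.32 FPKM in Alb-Cre replicates 1 to 4. Again the first 3 Alb-Cre libraries were low, on 12, 4 and 15 fragments, and the fourth was above all Alb-WT values. Lat's log2 fold change was -0.53 (SE 0.23, limma adjusted p = 0.102) and -0.79 without replicate 4 (adjusted p = 4.89e-06). For Thy1 the values were 1.65, 1.8, 1.35 and 1.79 FPKM in Alb-WT and 0.468, 0.219, 0.392 and 2.06 FPKM in Alb-Cre. In Thy1, too, Alb-Cre replicates 1 to 3 lay below all Alb-WT libraries and replicate 4 above them, with a log2 fold change of -0.67 (SE 0.26, limma adjusted p = 0.0725) and of -0.96 without replicate 4 (adjusted p = 7.73e-06).

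**Figure D2:**
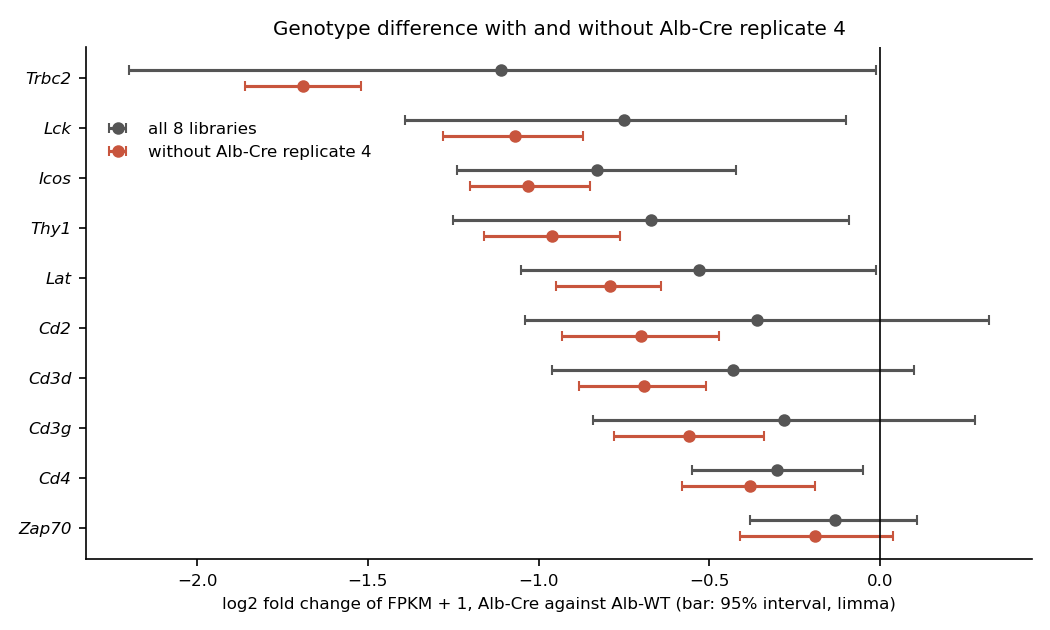
Log2 fold changes of FPKM + 1, Alb-Cre against Alb-WT, with 95% intervals from limma, for all 8 libraries (grey) and without Alb-Cre replicate 4 (red). Intervals narrow and move down for most genes when this library is left out, as for Trbc2 from -1.11 to -1.69, and those of Zap70 span 0 in both fits.

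The median log2 fold change of the 10 genes was -0.48 with all libraries and -0.75 without Alb-Cre replicate 4, beside -0.13 and -0.16 for all genes tested. On this scale, log2 of FPKM plus 1, changes of low genes are understated. Counted fragments give a fuller picture. Pooled over Alb-Cre replicates 1 to 3 and scaled to library totals, Icos was left at 8.05% of its Alb-WT level (exact 95% Poisson interval 5.61 to 11.2%, for the counting error of these libraries only). Lck (11.7%), Lat (11.9%), Trbc2 (13.4%), Cd2 (15.8%) and Cd3d (17.7%) followed, then Thy1 (21.7%) and Cd3g (28.6%, 22.6 to 35.7%). Cd4, at 58.2% (51.7 to 65.3%), and Zap70, at 82.1% (75.2 to 89.5%), lay above these 8, and their intervals did not overlap those of the others. Whether these genes differ from the rest beyond the spread between libraries was not tested.

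**Figure D3:**
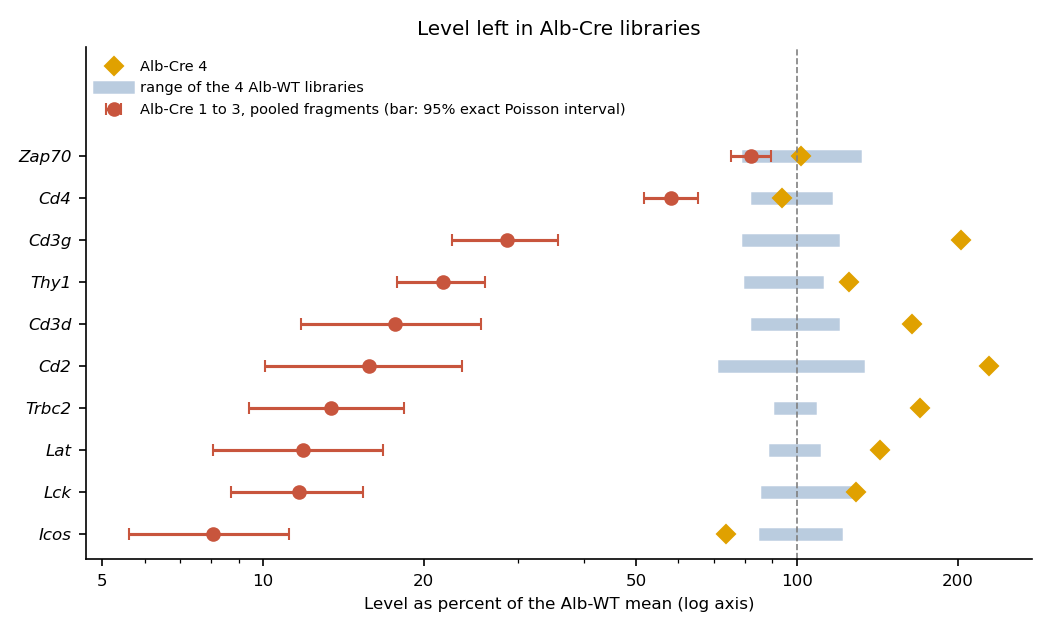
Level of each gene as a percent of its Alb-WT mean, on a log axis. Red points are fragments pooled over Alb-Cre replicates 1 to 3 with exact 95% Poisson intervals, diamonds are Alb-Cre replicate 4 and blue bars are the range of the Alb-WT libraries. Zap70 at 82.1% and Cd4 at 58.2% stand to the right of the other red points, which run from 8.05% to 28.6%.

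In Alb-Cre replicate 4 the order was different. This library was above all Alb-WT libraries for 7 of the 10 genes, within their range for Cd4 and Zap70, and below them for Icos. Among all genes tested 34.4% were above and 33.5% below. Relative to the Alb-WT mean it had 229% of Cd2, 203% of Cd3g, 170% of Trbc2, 164% of Cd3d, 143% of Lat, 129% of Lck and 125% of Thy1. It had 102% of Zap70, 93.8% of Cd4 and 73.5% of Icos. The pattern of low Alb-Cre replicates 1 to 3 with a replicate 4 above Alb-WT was found in 10.2% of all genes tested. As 1 library, it has no replicate check.

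Summed over the 10 genes, the Alb-WT libraries had 14.4 to 15.2 FPKM, Alb-Cre replicates 1 to 3 had 3.98 to 4.28 FPKM and Alb-Cre replicate 4 had 21.1 FPKM. The make-up of the sum shifted as well. Zap70 accounted for 11.6% to 17.6% of it in Alb-WT, 39.5% to 41.6% in the first 3 Alb-Cre libraries and 9.97% in Alb-Cre replicate 4. For Cd4 these shares were 7.02% to 8.96%, 13.5% to 21.1% and 5.35%. Trbc2 made up 24.1% to 27.2% in Alb-WT, 9.45% to 15.3% in the first 3 Alb-Cre libraries and 31.5% in Alb-Cre replicate 4. Set against the sum of Cd3d and Cd3g in the same library, Icos was 0.644 to 0.913 in Alb-WT and 0.299 in Alb-Cre replicate 4, whereas Trbc2 was 2.25 to 2.59 and 2.17. Such ratios in Alb-Cre replicates 1 to 3 rest on few fragments and spread widely, for Icos from 0.112 to 0.611.

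**Figure D4:**
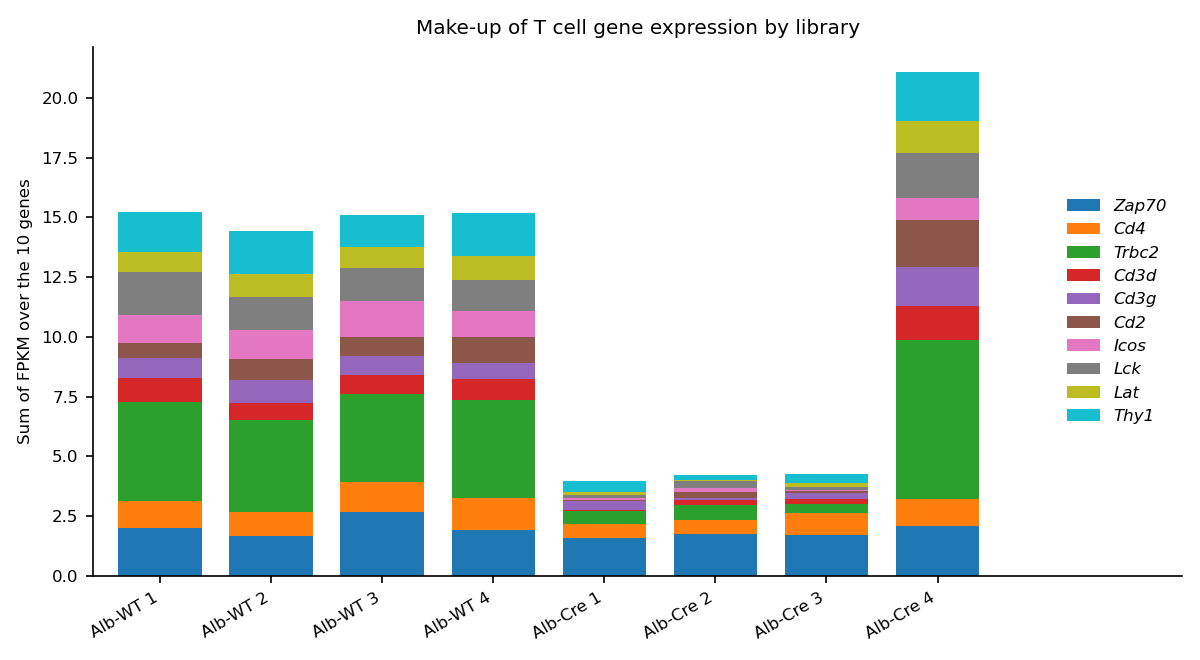
Sum of FPKM over the 10 T cell genes in each library, stacked by gene. The Alb-WT bars reach 14.4 to 15.2 FPKM, those of Alb-Cre replicates 1 to 3 reach 3.98 to 4.28 FPKM with Zap70 as the largest segment, and that of Alb-Cre replicate 4 reaches 21.1 FPKM.

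By level per length in Alb-WT, Trbc2 (3.92 ± 0.222 FPKM, SD, n = 4) came first and did not overlap with Zap70 (2.07 ± 0.421). Zap70, Thy1 (1.65 ± 0.209), Lck (1.47 ± 0.246), Icos (1.25 ± 0.169) and Cd4 (1.2 ± 0.151) each overlapped the next in this order. Lat (0.923 ± 0.0745), Cd3d (0.857 ± 0.123), Cd2 (0.846 ± 0.201) and Cd3g (0.815 ± 0.119) followed, below Cd4 without overlap, and overlapped one another. Zap70 ranked 1 and Cd4 ranked 2 of 10 by mean in Alb-Cre replicates 1 to 3, and Icos ranked 10 there and in Alb-Cre replicate 4.

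Other genes of the T cell receptor pathway were read from a list of 32, of which 15 were analysed here and 6 passed the expression minimum. With all libraries 3 fell, none rose and 3 did not pass. Without Alb-Cre replicate 4, 5 fell. Over all genes tested 23.3% fell and 8.48% rose with all libraries, and 46.1% and 15.2% without that library. These shares apply beside the counts of each list that follows. In this list and in those that follow, some genes, such as Rasgrp1 (mean 0.186 FPKM), averaged under 0.5 FPKM in Alb-Cre replicates 1 to 3. Such genes passed the minimum through the other libraries. Their falls, and the counts that include them, describe the lists only. Lcp2, the adaptor that Lat recruits, was 5.21 to 5.51 FPKM in Alb-WT, 1.17 to 1.38 in the low Alb-Cre libraries and 4.87 in Alb-Cre replicate 4 (log2 fold change -1.16, SE 0.29, limma adjusted p = 0.0193). Fyb, a partner of Lcp2, fell by 1.08 (adjusted p = 0.0193) and Rasgrp1, a Ras activator downstream of Lat, by 0.84 (0.0262) on the log2 scale. Alb-Cre replicate 4 had 90.3%, 89.5% and 91.0% of the Alb-WT mean of Lcp2, Fyb and Rasgrp1, and all 3 were called under each scaling tried. In that library the sum of the 10 T cell genes was 141% and that of macrophage and Kupffer cell markers 91.9% of Alb-WT. Which cells the values of these 3 genes came from was not tested. Ptpn22, a phosphatase that restrains Lck, and the kinase gene Fyn had log2 fold changes of -0.37 and -0.27 (adjusted p = 0.109 and 0.156), and -0.55 and -0.41 without replicate 4 (1.49e-04 and 0.00204). Plcg1, a phospholipase gene active in many cell types, had -0.10 (adjusted p = 0.347) and -0.14 (0.131), and 0.05 and 0.07 under median-of-ratios and quantile scaling.

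Genes of T cell state numbered 22, with 10 tested, of which 5 fell and none rose; without Alb-Cre replicate 4, 8 fell. Under median-of-ratios scaling 4 fell and 1 (S1pr1) rose, and under quantile normalization 3 fell. S1pr1, a receptor for lymphocyte exit that endothelium also carries, was named after its values were seen and had a log2 fold change of 0.13 (limma adjusted p = 0.158), with 109% of the Alb-WT mean in Alb-Cre replicates 1 to 3. Cxcr6, a chemokine receptor of liver-resident lymphocytes, fell by 0.98 (limma adjusted p = 0.00689) and the adhesion receptor gene Cd44 by 1.47 (0.00789). Alb-Cre replicate 4 had 50.5% of the Alb-WT mean of Cxcr6 and 69.6% of that of Cd44. Cxcr6 averaged 0.4 FPKM in Alb-Cre replicates 1 to 3, so it passed the minimum of 0.5 FPKM through the other libraries. Of 9 checkpoint and costimulation receptors 2 were tested and neither was called. Lag3, an inhibitory receptor that resembles CD4, was 0.795 to 1.8 FPKM in the first 3 Alb-Cre libraries, 1.2 in Alb-Cre replicate 4 and 0.513 to 0.83 in Alb-WT (log2 fold change 0.36, adjusted p = 0.0711; 0.35 without replicate 4, adjusted p = 0.0465). It was called higher under median-of-ratios and quantile scaling. Btla had -0.43 (adjusted p = 0.168), and -0.67 without replicate 4 (3.52e-04). Its mean in Alb-Cre replicates 1 to 3 was 0.129 FPKM, with the same limit as for Cxcr6.

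Of 16 genes of cytotoxic and natural killer cells, 6 were tested, 2 fell with all libraries and all 6 fell without Alb-Cre replicate 4. In Alb-Cre replicates 1 to 3 the tested genes averaged 0.101 (Klrk1) to 0.537 FPKM. Most thus passed the minimum of 0.5 FPKM through the other libraries, and these counts describe the list only. Klrk1, an activating receptor, fell by 0.60 (limma adjusted p = 0.0139) and the granzyme gene Gzma by 1.22 (0.0383). The summed level of the 9 with values was 21.6 to 25.9 FPKM in Alb-WT, 1.26 to 2.58 in the first 3 Alb-Cre libraries and 43.4 in Alb-Cre replicate 4. This list thus moved the same way as Lck and Cd2, genes that natural killer cells share, and its part in their values was not tested.

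Among ligands of the receptors, 4 of 5 tested genes fell, and 5 without Alb-Cre replicate 4. H2-Ab1, an MHC class II chain and thus a ligand of CD4, was 137 to 156 FPKM in Alb-WT, 5.28 to 6.06 in the first 3 Alb-Cre libraries and 148 in Alb-Cre replicate 4 (log2 fold change -3.32, limma adjusted p = 0.0272). Cd48, the ligand of CD2, fell by 1.45 (adjusted p = 0.0147). Of 7 tested chemokines that draw T cells 2 fell, beside 23.3% of all genes, and 5 fell without Alb-Cre replicate 4, beside 46.1%; none rose in either fit. Cxcl10 fell by 1.89 (adjusted p = 0.0252) and Cxcl12 by 0.66 (0.00424) on the log2 scale. Ccl21a, named after its values were seen, had a log2 fold change of 0.43 (adjusted p = 0.128), with 169% of the Alb-WT mean in Alb-Cre replicates 1 to 3.

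Immune marker lists were low in Alb-Cre replicates 1 to 3, as the T cell genes were, but differed in Alb-Cre replicate 4. Hepatocyte and endothelial sums were near Alb-WT in the first 3 Alb-Cre libraries (104% and 96.2%), but these sums hide opposite moves of single genes. In those libraries endothelial genes ran from 49.1% (Lyve1) to 142% (Clec4g) of their Alb-WT mean. Hepatocyte genes ran from 71.7% (Tat) to 123% (Ttr), and Alb, the largest part of their sum, had 112%. The sums that follow are for Alb-WT, for the first 3 Alb-Cre libraries and for Alb-Cre replicate 4, in this order. No gene called with all libraries in any of these lists changed sign under another scaling of all libraries. That does not cover genes called only without Alb-Cre replicate 4, some of which, such as Ttr, did change sign. Among 17 pan-leukocyte genes 16 fell (17 without Alb-Cre replicate 4), with Was (-1.10) and Itgal (-1.51) of smallest p, and their sum was 155 to 164 FPKM in Alb-WT, at most 40.6 in Alb-Cre replicates 1 to 3 and 164 in Alb-Cre replicate 4. All 11 macrophage and Kupffer cell genes fell (11 without Alb-Cre replicate 4, 10 under median-of-ratios or quantile scaling), Vsig4 (-1.06) and Clec4f (-1.03) first, with sums of 862 to 916, 278 to 287 and 817 FPKM. The 6 tested neutrophil genes fell (6 without Alb-Cre replicate 4), Elane (-2.98) and Mmp9 (-0.84) first, with sums of 267 to 329, 7.36 to 7.70 and 90.1 FPKM. In Alb-Cre replicate 4 the neutrophil sum was thus 31.1% of the Alb-WT mean while that of the T cell genes was 141%. Elane (0.181) and Mmp9 (0.237) averaged under 0.5 FPKM in Alb-Cre replicates 1 to 3, as did some of the pan-leukocyte genes. These passed the minimum through the other libraries, so the neutrophil and pan-leukocyte counts describe the lists only.

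For B cells, 3 of 10 markers were tested and none was called, with Cd22 at -0.29 and Cd79a at -0.36. All 3 were called lower without Alb-Cre replicate 4, and the list's sums were 4.38 to 4.91, 1.12 to 1.89 and 7.36 FPKM. In Alb-Cre replicates 1 to 3 Cd22 averaged 0.225 and Cd79a 0.375 FPKM, so both passed the minimum of 0.5 FPKM through the other libraries. Plasma cell genes were highest in Alb-Cre replicate 4, with sums of 119 to 132, 80.8 to 86.0 and 323 FPKM, chiefly Igkc, which was 42.7 to 52.3 FPKM in Alb-WT and 214 FPKM there. Of 4 tested, 1 fell, beside 23.3% of all genes, and 3 fell without Alb-Cre replicate 4, beside 46.1%. The gene called with all libraries was Sdc1 (-0.25), which hepatocytes also express and which was not called under median-of-ratios scaling. Ighm had 0.39 (limma adjusted p = 0.537). Dendritic cell markers were tested for 3 of 8 genes, with none called (Batf3 -0.75, Itgax -0.83) and 3 lower without replicate 4. Their sums were 5.89 to 7.14, 1.56 to 1.69 and 7.95 FPKM. Batf3 (0.232) and Itgax (0.283) also averaged under 0.5 FPKM in Alb-Cre replicates 1 to 3, with the same limit. The part of these cells in the values of Cd2 and Cd4 was not tested.

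Platelet markers, relevant to Lat, fell in 4 of 4 tested cases with all libraries (Pf4 -1.39, Ppbp -2.90), and in 4 without Alb-Cre replicate 4. Their sums were 23.6 to 28.1, 3.81 to 4.64 and 8.90 FPKM. Alb-Cre replicate 4 had 35.2% of the Alb-WT platelet sum and 143% of Lat, and the part of platelets in the Lat values was not tested. Only Hdc (-0.89) and Kit (-0.11) of 8 mast cell markers were tested, and the first fell, with this library and without it. Ppbp (0.482) and Hdc (0.442) averaged under 0.5 FPKM in Alb-Cre replicates 1 to 3. Both passed the minimum through the other libraries, so the platelet and mast cell counts describe the lists only. Stellate cell and fibroblast markers, relevant to Thy1, fell in 5 and rose in 1 of 11 tested cases with all libraries (Dcn -0.64, Acta2 0.63). The counts were 7 and 1 without Alb-Cre replicate 4, and 3 and 1 under median-of-ratios scaling. Sums of this list were 68.3 to 71.8, 41.7 to 44.3 and 58.0 FPKM. Alb-Cre replicate 4 had 82.1% of the Alb-WT sum of this list and 125% of Thy1, and the part of these cells in the Thy1 values was not tested. Endothelial markers fell in 3 of 7 cases and rose in none (Lyve1 -0.81, Cdh5 -0.65), beside 23.3% and 8.48% of all genes. Without Alb-Cre replicate 4, 4 fell and 2 rose, beside 46.1% and 15.2%, and under median-of-ratios scaling 3 fell and 1 rose. The 2 that rose without that library, named after their values were seen, were Clec4g (0.48, limma adjusted p = 0.000173) and Oit3 (0.25, 0.00277), which had 0.35 and -0.01 with all libraries (0.0603 and 0.966). The endothelial list had sums of 43.2 to 46.6, 41.9 to 43.6 and 31.8 FPKM. Of 8 hepatocyte markers 1 fell (Tat, -0.46; none under median-of-ratios scaling and 4 under quantile normalization). Without Alb-Cre replicate 4, 5 fell and 2 rose, the latter being Alb (0.16, limma adjusted p = 0.00513) and Ttr (0.30, 0.00137), named after their values were seen. With all libraries Ttr had 0.05 (adjusted p = 0.87), and -0.27 under quantile normalization (0.271), Apob had -0.27 (limma adjusted p = 0.0585), and the list's sum was 41100 to 41700 FPKM in Alb-WT, 42400 to 43700 in the first 3 Alb-Cre libraries and 34200 in Alb-Cre replicate 4.

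**Figure D5:**
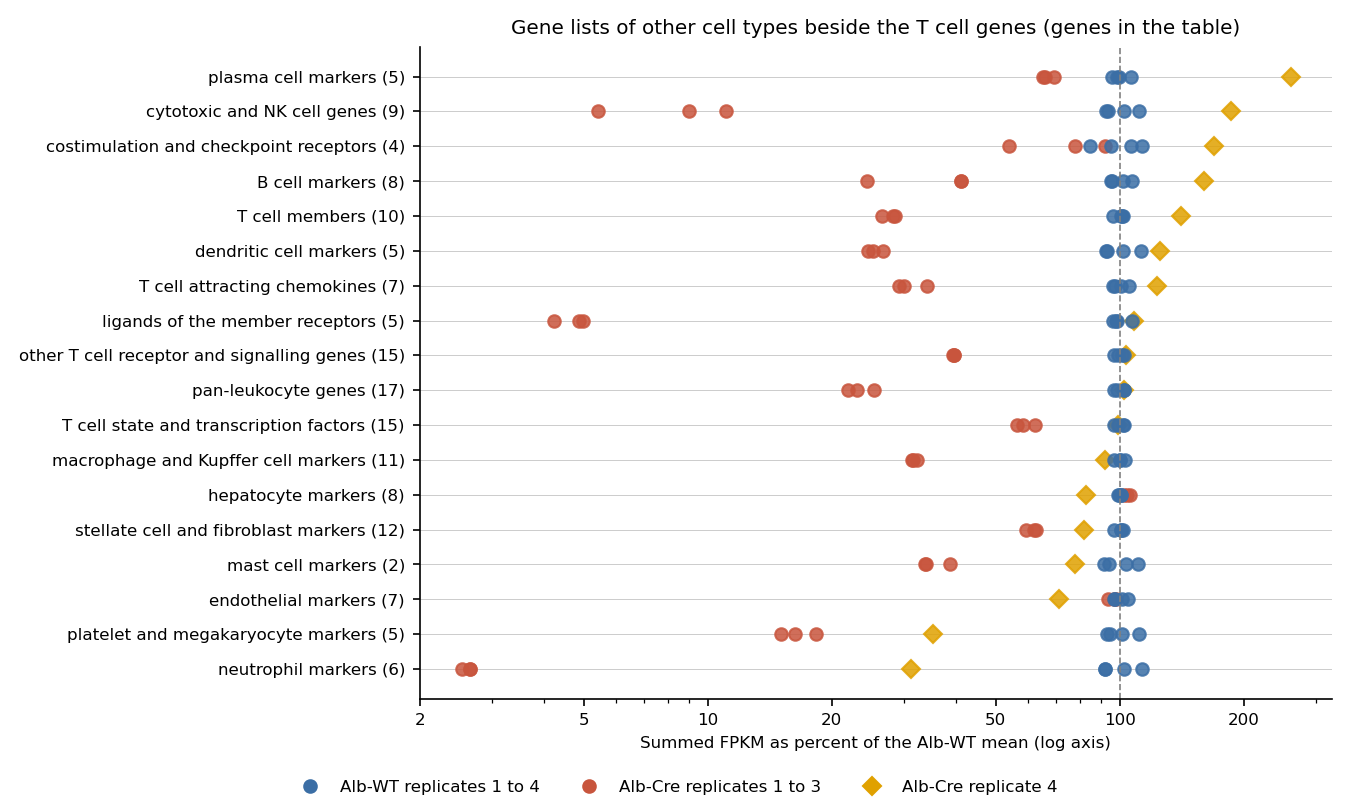
Summed FPKM of each gene list as a percent of its Alb-WT mean, on a log axis, 1 point per library, with the number of genes summed in parentheses. Diamonds are Alb-Cre replicate 4. Most immune lists are low in Alb-Cre replicates 1 to 3, and replicate 4 runs from 31.1% for neutrophil markers to 260% for plasma cell markers, with the T cell genes at 141%.

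The genes most like the T cell genes over the 8 libraries were found by profile distance. Each gene's log2 values were centred on its Alb-WT mean and divided by its mean absolute shift in Alb-Cre replicates 1 to 3. The distance is the mean absolute difference from the average profile of the 10 genes. The 10 genes, unnamed gene models and symbols with several rows were left out of the search. Among 9320 genes averaging 1 FPKM or more the nearest were Dnajc12, a cochaperone gene (distance 0.0314), Sash3, a lymphocyte adaptor gene (0.0369), Zfp384 (0.0414), the survival factor gene Mcl1 (0.0453), the inhibitory receptor gene Pirb (0.0471), the kinase gene Ikbkb (0.0477), Dusp11 (0.0482) and Ccnl2 (0.0507). Sash3 was 1.69 to 2.24 FPKM in Alb-WT, 0.201 to 0.481 in the first 3 Alb-Cre libraries and 2.93 in Alb-Cre replicate 4. Of the 10 genes themselves Trbc2 was nearest to their average (0.0797) and Zap70 farthest (0.42). The measure ignores the size of the shift, and the distance of genes with few fragments includes counting error.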

How the data were processed

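RNA of 8 mouse liver libraries was measured by sequencing, and titles gave each sample's group and number. The deposited table holds FPKM values computed by the authors, with no value of 0, so genes with no fragment in some library are not analysed here and the list leans toward genes still detected in every library. HISAT2 2.0.5 was used, per the submitters' processing notes, which list the mouse genome build mm39. GENCODE M21, whose exon lengths are used below, annotates GRCm38 instead, and this difference was not resolved. Which tool, annotation and strand setting counted the fragments is not stated in the sources used here. Fragments were recovered from the FPKM steps: with GENCODE M21 exon lengths 12702 of 13703 rows (92.7%), among them all 10 T cell genes, gave whole numbers in every library (relative tolerance 1e-08).

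Tests used limma 3.58.1 (R 4.3.3, trend, genotype only) on log2(FPKM + 1), over the 11077 rows averaging 0.5 FPKM or more, with Benjamini-Hochberg adjustment over all of them and a call at adjusted p under 0.05. The fit was also run on simulated counts with the typical spread of the Alb-WT libraries. These held no outlying library, so that run does not speak to fits that include Alb-Cre replicate 4. Python 3.11.15 (numpy 2.4.6, pandas 2.3.3, scipy 1.17.1, matplotlib 3.10.9) was used for the rest. Poisson intervals cover counting error only. The genes and the 17 other lists were chosen with earlier results of these data known. Named were all 10 genes, Bicd2, every tested gene of the receptor pathway list, the 2 genes of smallest p in each other list and the 8 of nearest profile; Igkc, S1pr1, Ccl21a, Clec4g, Oit3, Alb and Ttr were added after their values were seen. Alternatives covered pseudocount, filter, scaling, voom, a replicate block and leaving out each library. Sequences are from RefSeq (GRCm38.p6).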

Additional observations from a re-analysis of the deposited data

Results flagged for a closer look

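In 7 of the 10 T cell genes, Alb-Cre replicate 4 was far from the other 3 Alb-Cre libraries: its gap to the nearest of them, as a share of the group's range, was above Dixon's 95% limit for 4 samples. These values were 1.41 FPKM for Cd3d, 1.94 for Cd2, 1.90 for Lck, 0.916 for Icos, 6.64 for Trbc2, 1.32 for Lat and 2.06 for Thy1. No Alb-WT library and no Bicd2 value was set apart in this way. With 22 groups of 4 examined, chance sets apart about 1 in 20, but the 7 values belong to the same library and are not independent. Cd3g (1.66 FPKM in this library), Cd4 and Zap70 did not pass the limit.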

How the results depend on the processing

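Icos was called lower under every alternative that tested it, and Bicd2 under all. The number of T cell genes called lower was 1 with all libraries and 1 to 9 on leaving out a single library, the 9 being reached without Alb-Cre replicate 4. It was 5 with voom on recovered fragments (Icos, Lck, Lat, Thy1 and Trbc2), and 0 with a stricter minimum mean of 1 FPKM, where Icos and 4 others were no longer tested. In fits chosen after seeing the data that leave out Alb-Cre replicate 4, it was 9 with median-of-ratios scaling, 9 with voom and 8 with quantile normalization, which lost Cd4. Zap70 changed sign under quantile normalization, to 0.08 with all libraries and 0.09 without Alb-Cre replicate 4, uncalled in both. Over all genes, 2582 were called lower and 939 higher. These counts were 1516 and 1872 with median-of-ratios scaling and 1478 and 1523 with quantile normalization, and 623 were higher after rescaling to a common FPKM sum. Leaving out single libraries gave 1205 to 5112 lower, over 1.5 times from the full count for each of the 8, and 546 to 1679 higher. With the replicate block 1631 were lower and 613 higher, and 1 T cell gene, Icos, was still called. Same-numbered libraries did not deviate together (correlations -0.10 to 0.01, none best with its own number). The labels name no pairing. With 4 libraries per group and Alb-Cre replicate 4 far from its group, these correlations cannot exclude one. Few fragments limit precision: 18 of 30 values in Alb-Cre replicates 1 to 3 rest on 20 fragments or fewer, against 36 to 265 in the other libraries.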
